A study of Homo sapiens with 4 samples.

Results

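The genes for the subunits of TRiC, the chaperonin of the cytosol (also named CCT), were examined in a map of IGF2BP2-bound RNA. The 8 genes TCP1, CCT2, CCT3, CCT4, CCT5, CCT6A, CCT7 and CCT8 were chosen by name, out of 20052 protein-coding genes in the RefSeq table. Their peaks were those that carried the gene's Ensembl identifier and lay in an exon or intron on its strand, called sense peaks here. They numbered 43 of 74237 sense peaks in replicate 1 and 56 of 77288 in replicate 2, within lists of 145715 and 137934 peaks in all. Each identifier lay at the GRCh38 position of its gene.

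The samples were Jurkat cells, an established human leukemic T-cell line grown in RPMI-1640 medium with serum, with no treatment or genotype contrast named in the labels. RNA bound to IGF2BP2 was taken down with an anti-IGF2BP2 antibody by iRIP-seq, a UV-crosslinking form of RNA immunoprecipitation, in 2 replicate libraries. The 2 input libraries were not analysed here, so the abundance of each mRNA was not available to set beside its peaks. With a single condition the values are descriptions of these libraries, and nothing in the labels says that the replicates came from separate cultures.

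TRiC is a barrel of stacked rings in which each of the 8 subunits holds a set place. Proteins such as actin, tubulin and many with WD40 repeats enter the barrel to fold, and ATP binding and hydrolysis by the subunits close it. TCP1, CCT2, CCT4 and CCT5 form the side of the ring known for high ATP affinity, and CCT3, CCT6A, CCT7 and CCT8 the side of low affinity. IGF2BP2 is an RNA-binding protein that reads N6-methyladenosine (m6A) and is known for keeping its target mRNAs stable. The m6A mark is set mostly at adenines in a GGAC context, which was the reason to look at the letters of peaks. Only peaks near gene starts could be read, as no genome sequence was used here.

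RefSeq start-site windows (GRCh38.p14) held the whole of 3 TRiC peaks, and their letters are shown first. Each line gives 30 bases, 5′ to 3′ on the strand of the gene, with GGA and the base after it in capitals in CCT7 and CCT2. In CCT5 the capitals mark the first ATG, at chr5:10250341.
CCT7, chr2:73234320-73234349, plus strand: tgggcggcccggtctcGGAGaagaggGGAG
CCT2, chr12:69585870-69585899, plus strand: atcagagggtGGAGgggccgcagccttccg
CCT5, chr5:10250320-10250349, plus strand: agtaattccggttgttgcaccATGgcgtcc
The CCT7 peak was called at the same place in both replicates, with 6 and 5 tags, and lay wholly in the 5′ untranslated region (UTR). The CCT2 peak, with 6 tags and also wholly 5′ UTR, was listed in replicate 2 and not in replicate 1. So was the CCT5 peak, with 5 tags and wholly coding sequence (CDS) in the authors' annotation. The marked ATG lies near the 3′ end of this CCT5 peak, so most of the peak is upstream of it. If that ATG is the start codon, most of the peak would be outside CDS, which was not tested. The CCT5 peak was counted as CDS below by the authors' annotation. GGA was found 2 times in the 49 bases of the CCT7 peak, 1 time in the CCT2 peak and 1 time in the CCT5 peak, searched on the strand of the gene, and GGAC was in none of them. Of all 35116 RefSeq start-site windows, 65.9% held GGA and 18.6% held GGAC in their last 49 bases. The match is a description of these letters only.

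All 8 subunit genes carried a sense peak in both replicates, a call that 43.4% of protein-coding genes received. CCT3 had the most, with 13 peaks in replicate 1 and 15 in replicate 2, and CCT4 the fewest on average, with 3 and 2. CCT5 had 9 and 10, CCT7 had 6 and 8, CCT2 had 5 and 5, CCT8 had 4 and 4, and CCT6A had 2 and 4. TCP1, which encodes the founding subunit of the family, had 1 peak in replicate 1 and 8 in replicate 2, the widest gap between the replicates among the 8 genes. The total over the genes was 49.5 ± 9.19 peaks (SD, n = 2).

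CCT3 stood at percentile 95.3 of all protein-coding genes by number of peaks in replicate 1 and 95.5 in replicate 2. CCT5 stood at 91.4 and 91.8, and CCT7 at 85.2 and 88.9. CCT4 was at 71.1 and 62.1, while TCP1 moved from 45.9 to 88.9. Within the tenth of genes closest in length, 2005 genes, CCT3 stood at 95.8 and 95.5, CCT5 at 95.2 and 93.6, and TCP1 at 57.5 and 93.3. The median number over the 8 genes was 4.5 in replicate 1 and 6.5 in replicate 2. Among all genes with a sense peak in both replicates the median was 4 in each.

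Since longer genes have room for more peaks, the counts were also set per 10 kb of RefSeq gene length. CCT5 led with 5.76 ± 0.429 peaks per 10 kb (SD, n = 2), before CCT3 with 4.77 ± 0.482, and the ranges of these genes did not overlap. TCP1 followed with 4.05 ± 4.46, a spread so wide that its range overlapped those of the other 7 genes. CCT7 had 3.74 ± 0.756 per 10 kb, above CCT2 with 3.10 in both replicates. CCT6A with 2.45 ± 1.16 overlapped both CCT2 and CCT8, the latter at 2.31 in both replicates. CCT4 was lowest, with 1.21 ± 0.343 per 10 kb, and its range lay below that of CCT8. In the plot of peaks per gene, TCP1 was the gene whose place in the order moved most between the libraries.

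The high-affinity genes TCP1, CCT2, CCT4 and CCT5 together held 18 peaks in replicate 1 and 25 in replicate 2. The low-affinity genes CCT3, CCT6A, CCT7 and CCT8 held 25 and 31. Peaks of at least 10 tags numbered 2 and 3 on the high-affinity side and 3 and 8 on the low-affinity side. Of those on the low-affinity side, CCT3 held 2 in replicate 1 and 6 in replicate 2. The genes of each side are too few, and too unlike each other, to read a difference between the sides.

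Most TRiC peaks lay mainly in CDS, meaning that CDS took the largest share of the peak's length in the authors' annotation. This held for 25 of 43 peaks (58.1%, 95% Wilson interval 43.3 to 71.6) in replicate 1 and 33 of 56 (58.9%, 45.9 to 70.8) in replicate 2. The same share over all sense peaks was 19.9% in replicate 1 and 25.6% in replicate 2. Here and below, all sense peaks means those of 20428 identifiers, of which 12664 were named as protein-coding. They were not matched to the TRiC genes by gene type or length, so the gap cannot be read as particular to TRiC. The TRiC share was 0.789 percentage points higher in replicate 2, a difference that did not pass the test (two-sided Fisher's exact test, p = 1.0). These intervals cover counting error only, and peaks of 1 gene are not independent. Without CCT3, the gene with the most peaks, CDS led in 60.0% of the peaks of replicate 1 and in 51.2% of those of replicate 2.

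Introns were the main region of 14 TRiC peaks (32.6%) in replicate 1 and 13 (23.2%) in replicate 2, against 69.2% and 62.4% of all sense peaks. Noncoding exons led in 3 (6.98%) and 6 peaks (10.7%), against 4.46% and 4.75% of all sense peaks. The 5′ UTR led in 1 peak of replicate 1, on CCT7, and in 3 of replicate 2, on CCT7, CCT2 and TCP1. Those shares were 2.33% and 5.36%, against 2.78% and 3.33% of all sense peaks. The 3′ UTR, where many targets of this protein family are known to be bound, led in no TRiC peak of replicate 1 and in 1 of replicate 2. The 1 TRiC peak was on CCT3, at chr1:156309000-156309100, with 6 tags.

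**Figure D1:**
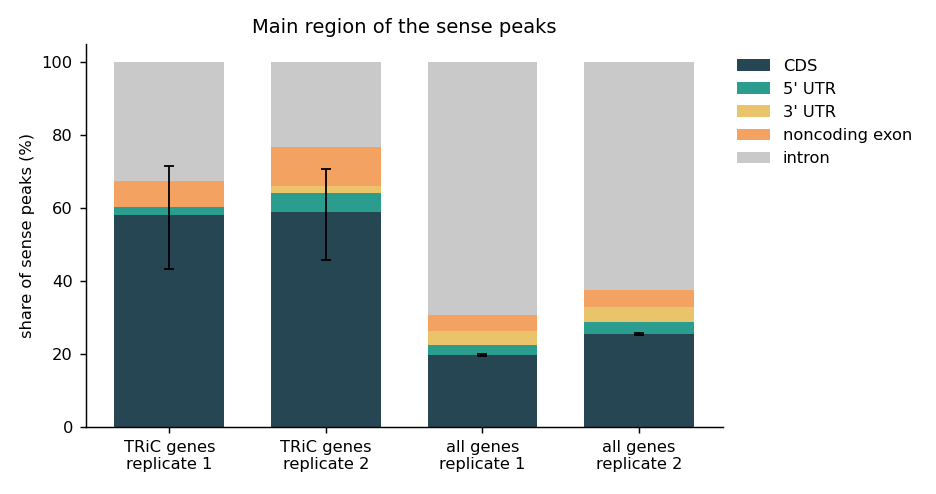
Share of sense peaks (percent, y axis) by main region for the TRiC genes and for all genes in each replicate. Error bars are the 95% Wilson interval of the CDS share; CDS is the main region of 58.1% and 58.9% of TRiC peaks and of 19.9% and 25.6% of all sense peaks.

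A peak with at least some CDS was more common still, at 34 of 43 TRiC peaks (79.1%) and 45 of 56 (80.4%), against 27.5% and 35.5% of all sense peaks. Peaks that held both CDS and intron, so that they crossed the edge of a coding exon, made up 22 peaks (51.2%) in replicate 1 and 33 (58.9%) in replicate 2. Among all sense peaks these were 15.5% and 21.0%. Peak ends fell on a grid of 50 nt, which limits how closely an edge can be placed.

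By gene, a peak mainly in CDS was present in both replicates for 7 of the 8 genes, against 16.9% of protein-coding genes. The exception was TCP1, whose single peak of replicate 1 was mainly intronic and whose replicate 2 list held 2 CDS peaks. CCT3 had 7 CDS peaks in replicate 1 and 12 in replicate 2. CCT5 had 6 and 8, CCT7 had 4 and 4, CCT8 had 3 and 2, CCT2 had 2 and 2, CCT4 had 2 and 1, and CCT6A had 1 and 2.

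Peak height is the signal in tags that the lists give for each peak. How it was computed is not stated, and some heights are fractions, such as 6.5 for CCT4 in replicate 2. Heights were not adjusted for depth, which the lists do not give. No peak below 4 tags was listed in replicate 1, and none below 5 in replicate 2. TRiC peaks had a median of 4 tags (range 4 to 15) in replicate 1 and 6.5 (range 5 to 19) in replicate 2. The median over all sense peaks was 4 and 5, and over sense peaks mainly in CDS it was 5 and 6.5. The TRiC median takes in peaks of every region, 14 and 13 of them mainly intronic. It therefore cannot be set like for like against the CDS median. At the floor of the list stood 22 TRiC peaks (51.2%) in replicate 1 and 18 (32.1%) in replicate 2, against 66.8% and 54.4% of all sense peaks. Peaks of at least 10 tags numbered 5 (11.6%) and 11 (19.6%), against 2.73% and 8.75% of all sense peaks.

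CCT3, CCT5 and CCT7, that is 3 of 8 genes, reached 10 tags in both replicates, which 3.75% of protein-coding genes did. TCP1 and CCT6A reached 11 and 12 tags in replicate 2, but their highest peaks in replicate 1 had 4 and 6 tags. CCT2 reached 5 and 8 tags, CCT4 reached 7 and 6.5, and CCT8 reached 6 and 9.

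CCT3, the gamma subunit, carried the highest TRiC peak of each library. At chr1:156338150-156338200, across the 5′ UTR (32% of the length) and CDS (62%) and 117 nt from the RefSeq start of the gene, it had 15 tags in replicate 1 and 19 in replicate 2. The caller's p-value for it was 3.09e-08 and 5.68e-08. A second CCT3 peak, at chr1:156335800-156335850, was as high in replicate 1 with 15 tags and had 14 in replicate 2. Its length was split between noncoding exon (52%) and CDS (48%).

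The other CCT3 peaks shared by the replicates were higher in replicate 2. At chr1:156334700-156334750 there were 8 and 11 tags, and at the neighbouring start chr1:156334850 there were 8 and 12. Further along the gene, at chr1:156317150-156317200, there were 4 and 13 tags, and at chr1:156317400-156317450 5 and 11. A peak starting at chr1:156320800 had 6 tags in replicate 1, where it was mainly intronic, and 8.5 in replicate 2, where it was longer and mainly CDS. Thus 7 of the 13 CCT3 peaks of replicate 1, and 7 of the 15 of replicate 2, were shared.

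One CCT3 peak of replicate 1, with 5 tags at chr1:156353050-156353100, carried the CCT3 identifier but lay 14758 nt outside the RefSeq gene, beyond its start. It was kept by its identifier. Replicate 2 listed a peak at the same place on the opposite strand, with 6 tags.

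CCT5, the epsilon subunit, had 5 places listed in both replicates. The highest was at chr5:10258100-10258150, 80% CDS, with 14 tags in replicate 1 and 13 in replicate 2. At chr5:10255950-10256000, 92% CDS, it had 11 and 13 tags. The remaining shared places were lower, with 6 and 8 tags from chr5:10256100 to chr5:10256150, 5 and 9 at chr5:10258350-10258400, and 4 and 7 starting at chr5:10254650. All 5 lay between 28.8% and 51.3% of the way from the 5′ to the 3′ end of the gene.

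CCT7, the eta subunit, also had 5 shared places, 3 of them mainly in CDS and close together near its 3′ end. At chr2:73249800-73249850 the peak reached 10 tags in replicate 1 and 8 in replicate 2. At chr2:73250300-73250350 it reached 4 and 8, as it did at chr2:73251200-73251250, where CDS and intron took equal shares. A mainly intronic peak at chr2:73239600-73239650 had 8 and 11 tags, and the 5′ UTR peak shown above had 6 and 5.

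The other shared places were 1 each on CCT8, CCT4 and CCT2. CCT8, the theta subunit, had 6 and 9 tags at chr21:29073500-29073550, at 123 nt from its start. CCT4, the delta subunit, had 7 tags at chr2:61888350-61888450 and 6.5 at chr2:61888400-61888500. CCT2, the beta subunit, had 4 and 8 tags at chr12:69599850-69599900, 76% CDS, near its 3′ end. TCP1 and CCT6A had no shared place. The single TCP1 peak of replicate 1 was at chr6:159780400-159780450, toward the 3′ end of the gene. Its highest of replicate 2, with 11 tags, was at chr6:159789400-159789500 near the start of the gene, 32% 5′ UTR and 64% CDS. The CCT6A peaks of replicate 1 lay at 74.5% and 81.5% of the gene's length, while the 4 of replicate 2 lay between 3.35% and 21.3% of it.

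**Figure D2:**
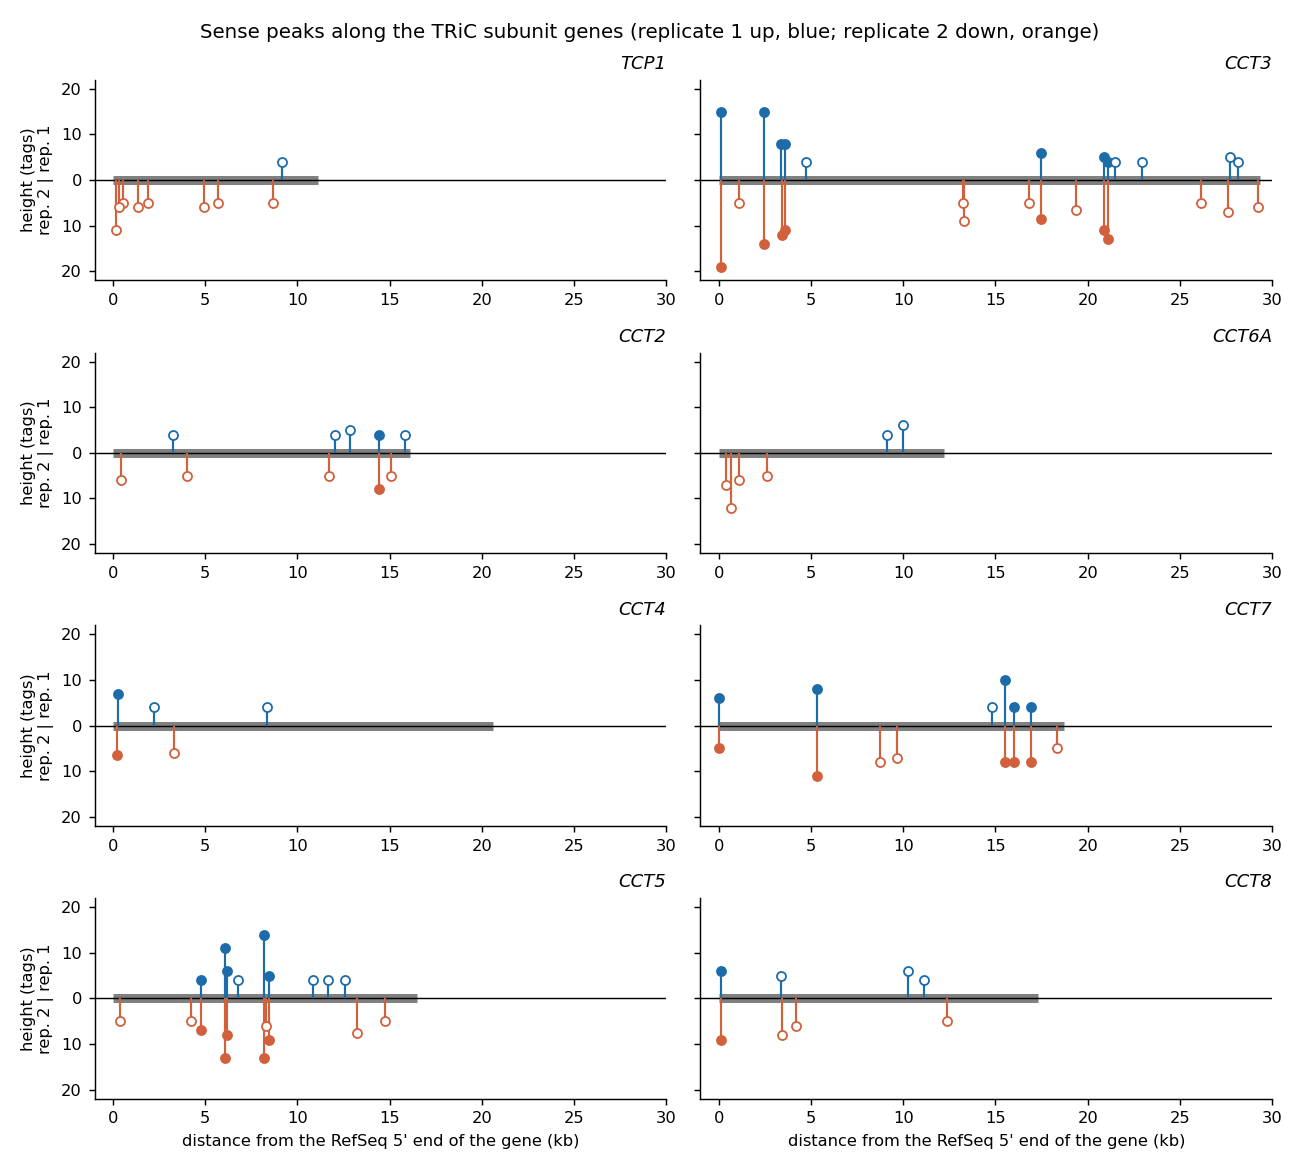
Height in tags (y axis) of each sense peak against distance from the RefSeq 5′ end of the gene (x axis, kb), with replicate 1 drawn up in blue and replicate 2 down in orange; the grey bar is the gene and filled points are peaks overlapped by the other replicate. CCT3, CCT5 and CCT7 hold 7, 5 and 5 of the 20 shared places, TCP1 and CCT6A none; the CCT3 peak 14758 nt outside the gene is left off.

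In all, 20 of 43 TRiC peaks of replicate 1 (46.5%, 32.5 to 61.1) shared at least 1 bp with a same-strand peak in the other library. Of the replicate 2 peaks it was 20 of 56 (35.7%, 24.5 to 48.8). Over all sense peaks the shares were 16.6% and 15.8%. Such a pair was present on 6 of the 8 genes, against 15.0% of protein-coding genes. In the lists as a whole, CDS peaks were shared more often than mainly intronic ones (7.11% and 7.12%), so the CDS peaks were compared on their own. There, 14 of 25 TRiC peaks (56.0%) and 15 of 33 (45.5%) were overlapped, against 45.8% and 35.0% of all sense CDS peaks. The Wilson intervals of the TRiC shares, 37.1 to 73.3 and 29.8 to 62.0, both take in the value for all CDS peaks.

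All 5 TRiC peaks of at least 10 tags in replicate 1 had an overlapping peak of any height in the other list, and 9 of 11 in replicate 2 did, the exceptions being the highest peaks of TCP1 and CCT6A. Over all sense peaks of that height 73.5% and 62.4% were overlapped. Of the mainly intronic TRiC peaks, 3 of 14 and 2 of 13 were overlapped.

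The 20 pairs could be compared in height. Replicate 2 was higher in 15 and lower in 5, with a median difference of 3 tags (range -2 to 9). Of the 12463 pairs over all sense peaks, 77.8% were higher in replicate 2, with a median difference of 2 tags. Spearman's rho between the replicates was 0.560 over the 20 TRiC pairs and 0.423 over all pairs, given as a description since pairs share their libraries and genes. In 15 of the 20 pairs both replicates had the same start and end, in 14 both peaks were mainly in CDS, and in 4 both reached 10 tags.

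**Figure D3:**
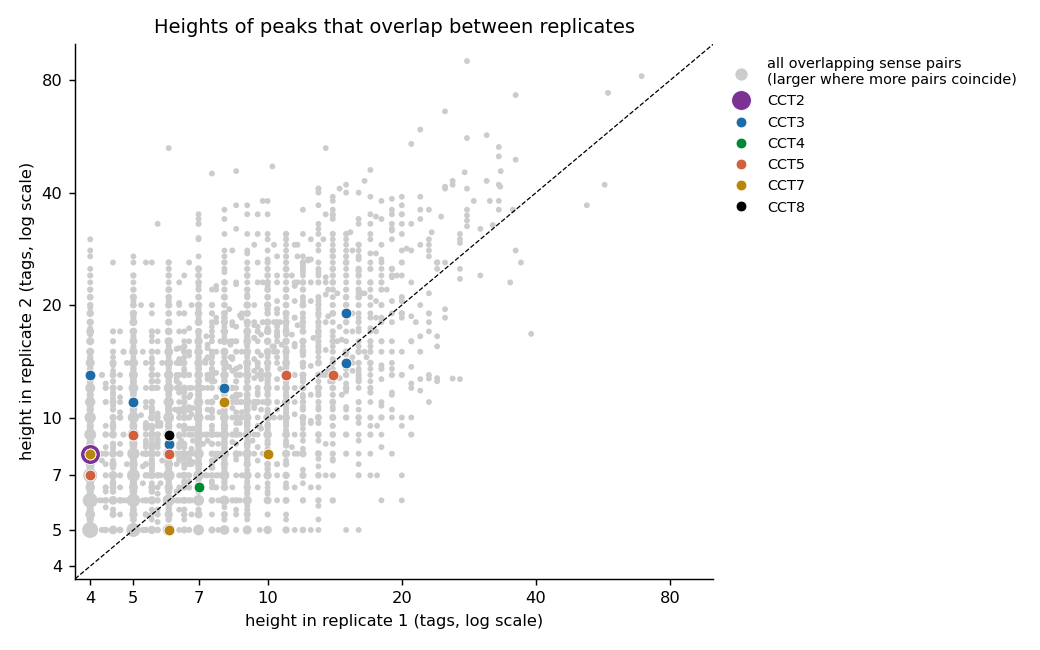
Height in replicate 2 against height in replicate 1 (tags, log axes) for sense peaks that overlap between the replicates, with the 12463 pairs of all genes in grey, the 20 TRiC pairs coloured by gene and the dashed line marking equal height. Of the TRiC pairs 15 lie above the line, and the CCT2 pair (large point) coincides with 2 CCT7 pairs at 4 and 8 tags.

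Positions were then set against the start of each gene. In replicate 2, all 8 genes had a peak whose middle lay within 1000 nt of the RefSeq 5′ end, a call made for 33.4% of the 8712 genes with a sense peak in both replicates. In replicate 1 it was 4 genes, CCT3, CCT4, CCT7 and CCT8, against 27.9%. The same 4 had one in both replicates, against 20.1%. The window was chosen after the positions were seen. In replicate 2 the first peak was 17 nt from the start of CCT7, 117 nt from that of CCT3, 123 nt for CCT8, 152 nt for TCP1, 221 nt for CCT4, 404 nt for CCT5, 410 nt for CCT6A and 416 nt for CCT2. For CCT3, CCT8, CCT4 and TCP1 this first peak was also the highest of the gene in that library.

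When each gene was divided into 3 equal parts, the 5′ part held 26 of 56 TRiC peaks (46.4%) in replicate 2, the middle part 14 and the 3′ part 16. In replicate 1 the 5′ part held 13 of the 42 peaks inside the genes (31.0%), the middle part 10 and the 3′ part 19. The Wilson intervals of the 5′ shares, 34.0 to 59.3 and 19.1 to 46.03, overlap, and the difference was not tested. Over all named protein-coding genes the 5′ part held 33.4% in each replicate. TCP1 and CCT6A had 5 and 4 peaks in the 5′ part in replicate 2 and none there in replicate 1.

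TCP1 and CCT6A host small nucleolar RNAs (snoRNAs) in their introns. No listed peak on either strand overlapped SNORA20 or SNORA29 in TCP1, or SNORA22B or SNORA15 in CCT6A. The TCP1 peak of replicate 1 ended or began 19 nt from SNORA20, the nearest of any. The subunit genes also have 18 pseudogenes in the RefSeq table, near-copies to which reads could be misplaced. Only CCT7P1, CCT6P3 and CCT6P1 had a listed peak, 4 in replicate 1 and 3 in replicate 2, none above 5 tags. The authors kept uniquely mapped reads, so stretches identical between a gene and its pseudogene would be missing from the lists.

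Antisense peaks numbered 3 on 3 genes in each replicate. The share over all genes was not computed, so this count cannot be called low or high. One of them, on CCT4 with 6 tags in replicate 1, lay at chr2:61888400-61888450 opposite the shared CCT4 peak at the gene's start. Whether reads of a neighbouring gene took part in that peak was not tested.

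The partners of TRiC were counted in the same way. Over all protein-coding genes, 43.4% had a sense peak in both replicates, 15.0% had overlapping peaks and 3.75% reached 10 tags in both. Of the prefoldin subunits, which hand unfolded actin and tubulin to TRiC, 4 of 6 had a sense peak in both replicates, 2 had overlapping peaks and none reached 10 tags in both. None of 6 at 10 tags lies near the 3.75% over all genes. VBP1 had no sense peak. Of the phosducin-like cochaperones, which bind TRiC together with its clients, 1 of 4 had a peak in both and none had overlapping peaks. Of the chaperonin-related genes, BBS10 and BBS12, which act with others in assembly of the BBSome, had no sense peak, and the identifiers of CCT6B and MKKS could not be named by position. Of the tubulin cofactors, which take up tubulin after TRiC, 4 of 5 had a peak in both. TBCA reached 33 tags in replicate 1 and 36 in replicate 2, and TBCD reached 11 and 18.

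The folding clients came next. Of all protein-coding genes, 43.4% had a sense peak in both replicates and 3.75% reached 10 tags in both. All 8 actin and tubulin genes had a sense peak in both replicates and 5 had one of at least 10 tags in both, namely ACTB, ACTG1, TUBA1B, TUBB and TUBB4B. ACTB reached 19 tags in replicate 1 and 86 in replicate 2, ACTG1 reached 11.5 and 45.4, TUBA1B 10 and 14.5, TUBB 14 and 12, and TUBB4B 10 and 11. Of the other known clients 10 of 11 had a peak in both and 4 reached 10 tags in both. These were the cell-cycle activator CDC20 (13 and 12 tags), the G-protein subunit GNB1 (14 and 20), the mTORC1 scaffold RPTOR (11 and 12) and the mitotic kinase PLK1 (11 and 14).

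Among other chaperones, 7 of 8 cytosolic heat shock protein genes had a sense peak in both replicates. Of the 8 genes, 6 had overlapping peaks and 4 reached 10 tags in both. The same calls were made for 43.4%, 15.0% and 3.75% of protein-coding genes. HSPA8, the constitutive HSP70, reached 14 and 21 tags, HSP90AA1 30 and 32, HSP90AB1 22 and 17, and the cochaperone DNAJB1 10.5 and 17. Of the mitochondrial chaperonin pair, HSPD1, the HSP60 subunit, had 6 peaks in each replicate and reached 13 and 8 tags, and HSPE1 could not be named by position. By highest peak, CCT3 with 15 and 19 tags stood near HSPA8, and below HSP90AA1 in both replicates. The median number of peaks, not set per length, was 6.5 and 8 over the heat shock list, against 4.5 and 6.5 for TRiC and 1 in each replicate over all protein-coding genes. The lists are small, and no difference between them was tested.

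The genes whose pattern was closest to the median of the 8 subunits were ANP32E, MORF4L1, STX6, PRPF31 and IWS1, with SRSF9 tied with the last. Closeness was the Euclidean distance over log2(sense peaks + 1) and log2(highest height in tags) in the 2 libraries, over 8704 other genes. ANP32E had 4 and 6 peaks and reached 7 and 11 tags, at a distance of 0.186. MORF4L1 was at the same distance with 5 and 6 peaks. The subunits themselves were farther from their own median, from 0.650 for CCT8 to 2.28 for CCT3. As many as 228 other genes lay as near to that median as CCT8, and 6361 lay as near as CCT3.

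The T-cell label was checked with the same peaks. Of 12 T-cell markers, 11 had a sense peak in both replicates, against 43.4% of protein-coding genes, and CD3D, CD3E, LCK, ZAP70 and BCL11B reached 10 tags in both, against 3.75%. Of the myeloid markers 2 of 4, a share near that of all genes, and of the erythroid markers 0 of 2 had a peak in both, and none reached 10 tags in both. PAX5, a B-cell transcription factor, had 5 peaks in each replicate and reached 6 tags in each.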

How the data were processed

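The 2 replicate iRIP-seq libraries of Jurkat cells were analysed. Per the labels and methods, 150 bp paired-end reads were aligned to GRCh38 with TopHat2 (version not given in the sources used here) and unique reads were kept. The authors called peaks per library against 500 random placements per gene (threshold p = 0.05) and removed peaks overlapping input peaks. The deposited lists give, for each peak, its height as a signal in tags, a p-value, the shares of its length in annotated regions and an Ensembl identifier. Intervals were read as half-open, since starts and ends lie on a 50 nt grid, and are printed as in the lists. Library depth is unknown.

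Identifiers were matched to RefSeq genes (GRCh38.p14) by strand and position: 12664 of 20428 with sense peaks were named as protein-coding. An identifier needed 80% of its CDS and UTR peaks inside the gene or within 1000 nt of it. Where it had no such peak, all its sense peaks had to lie there. A match to more than 1 gene was not used. Each sense peak was given the region with the largest share. Overlap needed 1 bp on the same strand. Shares have Wilson 95% intervals, and the CDS share was compared between libraries by Fisher's exact test (Python 3.11.15, pandas 2.3.3, scipy 1.17.1). Overlap and naming were tested on simulated peaks. A motif search over all peaks was not made, as no genome sequence was used here.

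Named genes were the 8 subunits; in 8 lists of TRiC partners, clients and other chaperones, those that reached 10 tags in both libraries or with no sense peak; and the 5 genes nearest to the subunits' median. HSPD1, PAX5 and the T-cell markers are named outside this rule, after their values were seen, and 1 marker list is reported in part. The members and lists were chosen with earlier results of these data known. Alternatives were minimum heights, a p-value limit, exonic peaks, assignment by position, other overlap rules and single replicates.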

Additional observations from a re-analysis of the deposited data

How the results depend on the processing

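The lists hold no depth and most TRiC peaks lie near the lowest height listed, so the number of peaks depends on the height limit. The mean total of 49.5 TRiC peaks fell to 8 with a height of at least 10 tags and to 20 with a p-value under 0.001, and ranged from 43 to 56 with 1 replicate left out. The number of genes with a sense peak in both replicates went from 8 to 3 and 5 under those limits, and the mean median height from 5.25 to 13 and 8.5 tags. The mean CDS share of 58.5% was 80.9% at 10 tags, 60.4% at 5 tags, 64.0% under the p-value limit, 81.5% among exonic peaks, 59.2% by position inside the RefSeq gene, 79.7% for any CDS, 53.7% by length and 55.6% without CCT3, and 58.1% to 58.9% in single replicates. The difference in that share between the replicates, 0.789 points, was 20.2 points under the p-value limit (53.8% and 74.1%; p = 0.284, Fisher's exact test) and changed sign to -2.98 points at 5 tags (exact p = 1.0), -9.46 among exonic peaks (p = 0.377, Fisher's exact test), -0.595 by position (exact p = 1.0) and -8.78 without CCT3 (p = 0.481, Fisher's exact test). The mean overlapped share of 41.1% (46.5% in replicate 1, 35.7% in replicate 2) was 58.2% at 10 tags, 49.1% at 5 tags, 57.0% under the p-value limit and 49.1% among exonic peaks, each applied to both lists, so that a peak of the other replicate had to pass too. The replicates parted under these limits, with 4 of 5 and 4 of 11 peaks at 10 tags, 71.4% and 26.8% at 5 tags, 76.9% and 37.0% under the p-value limit, and 58.6% and 39.5% among exonic peaks. Leaving out CCT3 was chosen after seeing the data, as was a 500 nt window at the 5′ end, which gave a count of 4 genes in both replicates, as the 1000 nt window did, while single replicates gave 4 to 8. The number of TCP1 peaks was decided by 1 library, at 1 to 8 with either left out. As percentiles of their own list, the median TRiC height was 0.0 in replicate 1, the floor, and 81.3 in replicate 2. The percentile is the share of listed peaks with fewer tags, so all peaks tied at the floor stood at 0.0. A peak of 5 tags in replicate 1 already stood at 74.8, and one of 6 tags in replicate 2 at 63.3. A gap in percentile can therefore come from a small step in tags. The cause of the difference in height between the replicates was not tested. No paired analysis was possible because the input libraries that share the replicate numbers were not analysed here.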
